A study of Homo sapiens with 8 samples.

Results

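The genes described here are 36 genes of the G2/M transition and mitosis: cyclins and CDK1, mitotic kinases, spindle checkpoint proteins, activators of the anaphase-promoting complex, centromere proteins, kinesins, spindle proteins and cytokinesis proteins. They were chosen by gene name, without a cut on their measured values but with earlier results of these data known. Each probe set was assigned to a gene through the symbol in the platform annotation, and all 36 genes had 1 probe set each, among 17687 named genes and 21448 probe sets. The cell line, CCRF-CEM, is an established T-ALL line (human acute lymphoblastic leukaemia of T cells). One group of 4 arrays came from CCRF-CEM cells given 1 µM OICR-9429 for 1 h and then placed for 1 h in a type I collagen gel of 1.7 mg/mL. The other 4 arrays came from untreated CCRF-CEM cells kept for 1 h in the same gel. OICR-9429 is a small molecule that occupies the pocket of WDR5, a subunit of the MLL-family complexes that methylate histone H3 lysine 4. The labels mention no solvent for the untreated cells. All 8 samples were taken in the gel, and all come from 1 cell line, without its normal counterpart. The labels number the samples of each group 1 to 4 as biological replicates and do not say whether they were separate passages or days, so each p-value reflects only the spread among these arrays, which may be technical.

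Entry into mitosis is driven by CDK1 bound to cyclin A or cyclin B, which CDC25 phosphatases activate. PLK1 and the Aurora kinases then direct spindle assembly and chromosome attachment, and the spindle checkpoint holds back the anaphase-promoting complex until kinetochores are attached. Most of these genes are transcribed periodically, with a peak in G2 and mitosis, and their summed expression is widely used as a measure of proliferation in leukaemia. In a bulk sample, fewer cells in G2/M and less RNA of these genes per cell cannot be told apart.

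Values are log2 expression per probe set, so a difference of 1 is a 2-fold difference. The medians of all probe sets ran from 6.38 to 6.46 over the 8 arrays. The arrays differed more by replicate number than by treatment: a test over the 4 numbers in limma called 10791 of the 21448 probe sets at an adjusted p under 0.05, and 2979 when number 4 was left out. Both arrays of number 4 stood apart from the other 6. The 10 T lineage markers had mean levels between 6.78 (CD1A) and 11.83 (CD3E), with a median of 9.59. Among the 15 measured markers of B cells, myeloid cells, fibroblasts and epithelium, MS4A1 (3.73), LYZ (3.79) and LUM (3.23) lay lowest, while CD79A (9.42), COL1A2 (8.11) and KRT8 (8.01) lay well above the array medians. WDR5, the protein target of OICR-9429, measured 9.93, 9.24, 9.66 and 9.24 in the OICR-9429 arrays, against 10.03, 9.12, 9.75 and 9.27 in the untreated arrays, a difference of -0.025 ± 0.25 (SE).

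The 36 mitotic genes lay among the brighter probe sets. Their mean levels over the 8 arrays ran from 8.41 (CENPA) to 11.45 (PLK1), with a median of 9.92, and all 36 lay above the median level of the probe sets, 6.45. Probe sets differ in how brightly they report a transcript, so these levels are not an order of transcript amounts. The median of the 36 genes was 9.91, 10.23, 9.90 and 9.81 in the OICR-9429 arrays of numbers 1 to 4, against 9.96, 10.09, 9.84 and 9.65 in the untreated arrays. In both groups it was highest in number 2 and lowest in number 4, and the groups overlapped.

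**Figure D1:**
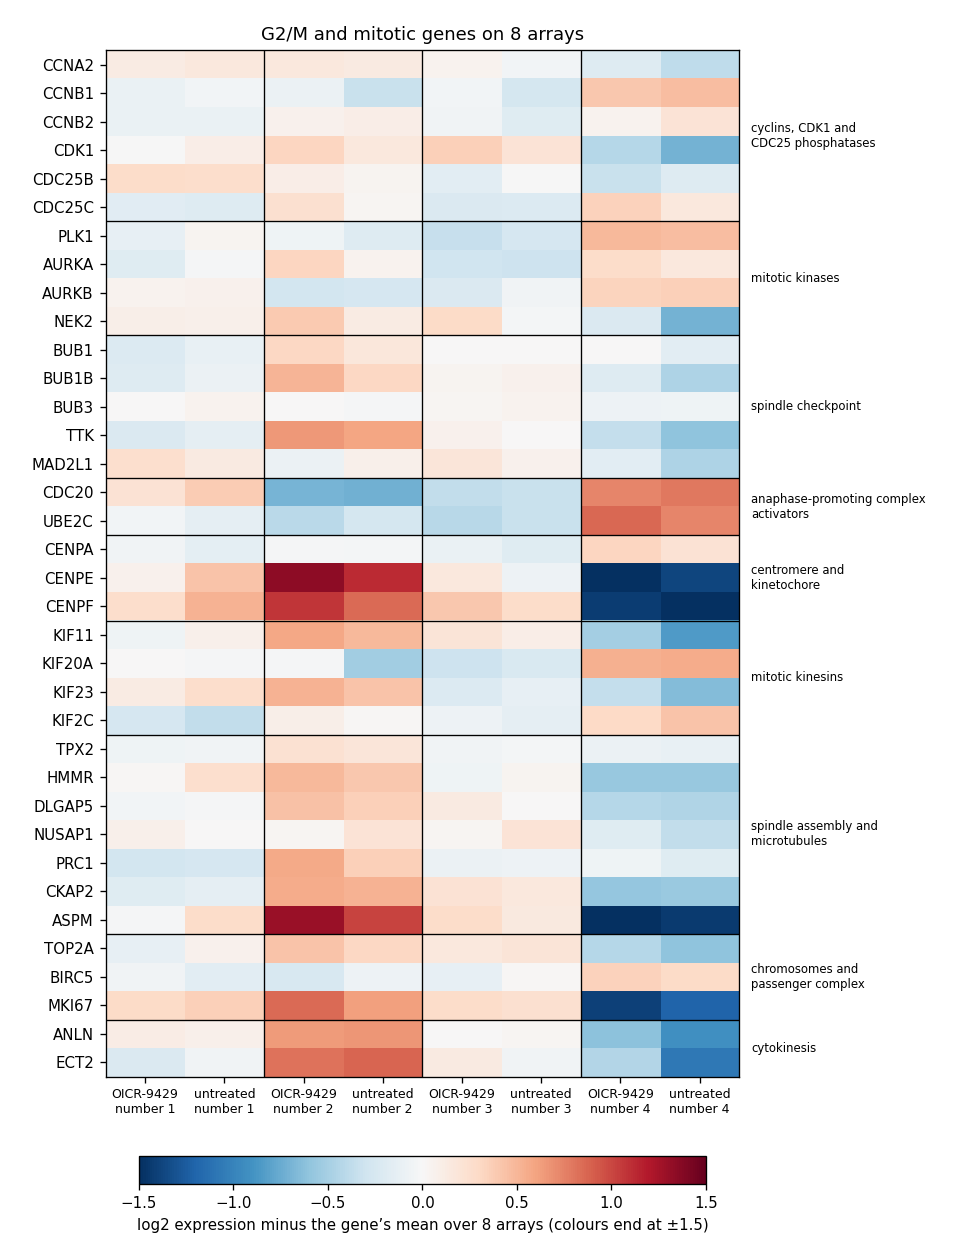
Log2 expression of the 36 genes (rows, by role) on the 8 arrays (columns, by replicate number, OICR-9429 left of untreated), as the difference from the mean of the gene over the 8 arrays (colour, ends at ±1.5). Columns of the same number look alike, and number 4 holds both the deepest blue (CENPF, CENPE, ASPM, MKI67) and the strong red of CDC20 and UBE2C.

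The first question of the design was whether OICR-9429 changed these genes between pretreatment and lysis. None of the 36 genes passed in limma at an adjusted p under 0.05, and neither did any of the other probe sets (0% of 21448). All 36 adjusted p-values were 1 without a replicate block, and the lowest was 0.841 with the replicate number as a block. At an unadjusted p under 0.05 the count was 0 of 36 genes, against 105 probe sets (0.49%). With the block, that count was 1 of 36 (NEK2), against 1191 probe sets (5.55%).

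The differences between OICR-9429 and untreated cells were small. They ran from -0.065 (HMMR, a spindle-associated hyaluronan-binding protein) to 0.28 (NEK2) on the log2 scale, with a median of 0.046, against 0.005 over all probe sets and 0.0275 over the brightest 25% of them. A difference above 0 was seen for 25 of the 36 genes (69.4%), against 51.1% of all probe sets and 62.3% of the brightest 25%. Without the block, leaving out 1 array also unbalances the numbers, and the median was then -0.042 without OICR-9429 replicate 2, -0.048 without untreated replicate 4 and 0.13 without untreated replicate 2. With the block and both arrays of a number left out, the median stayed above 0, at 0.023 without number 2 and 0.018 without number 4. With number as a block, the 95% interval of each of the 36 genes lay within a 1.5-fold change in either direction, and the median half-width was 0.23. The same held for 19448 of all 21448 probe sets and 5324 of the 5360 brightest. Without the block the median half-width was 0.51, and 31 of the 36 intervals lay within a 2-fold change. That count was 19191 over all probe sets and 4729 over the brightest.

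Within a replicate number, 1 OICR-9429 array was set against 1 untreated array, with no test. The median difference of the 36 genes was -0.045 in number 1, 0.085 in number 2, 0.005 in number 3 and 0.11 in number 4, and those of all probe sets lay between -0.02 and 0.01. Genes above 0 numbered 11, 28, 18 and 23 of 36 in numbers 1 to 4. Over all 21448 probe sets these counts were 9739, 10913, 10574 and 11013. Over the 5360 brightest probe sets they were 2461, 3037, 2860 and 3304. The 144 differences ran from -0.36 (CENPE, number 1) to 0.63 (ECT2, number 4), and 115 of them were smaller than 0.2 in size. NEK2 and CENPA were higher in OICR-9429 cells in all 4 numbers (2 of 36 genes, against 5.94% of probe sets), and AURKB was lower in all 4 (1 of 36, against 6.62%). For none of the 36 genes did the 4 OICR-9429 values lie clear of the 4 untreated values (0.737% of probe sets).

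**Figure D2:**
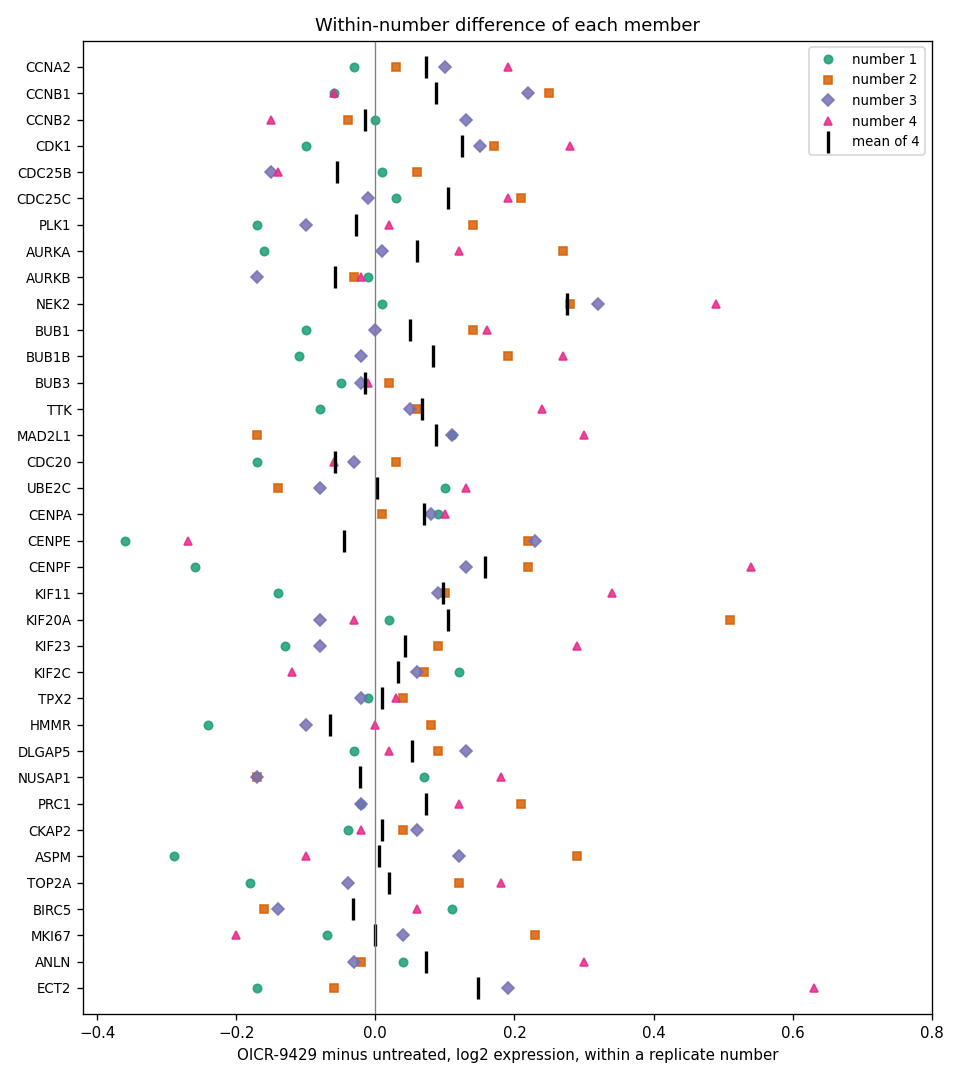
OICR-9429 minus untreated on the log2 scale (horizontal axis) for each of the 36 genes (rows) within replicate numbers 1 to 4 (coloured points), with the mean of the 4 differences as a black bar. The bars lie between -0.065 and 0.28, and most points lie within 0.2 of 0, with ECT2, CENPF and NEK2 in number 4 and KIF20A in number 2 farthest to the right.

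The second question was how far the genes moved together over the replicate numbers. Number accounted for 96.2% of the summed variation of the 36 genes, treatment for 0.895% and the remainder for 2.86%, against 85.5%, 3.93% and 10.6% over all probe sets. Over the brightest 25% of probe sets the shares were 95%, 1.36% and 3.64%, near those of the 36 genes. The range of the 4 number means was 0.76 at the median, against 0.635 over all probe sets and 0.83 over the brightest 25%. It ran from 0.12 for BUB3 to 2.75 for CENPE and exceeded 1 for 12 genes. For all 36 genes this range was wider than the largest of the 4 OICR-9429 minus untreated differences in size. Neither count was taken over all or over bright probe sets. The limma test over numbers called 26 of 36 genes (72.2%), against 50.3% of all probe sets and 74.3% of the brightest 25%, so the share of called genes was near that of other bright probe sets. Without number 4 it called 9 genes (25%, against 13.9% of all probe sets): TTK, CDC20, CENPE, KIF23, PRC1, CKAP2, ASPM, ANLN and ECT2. The share of the brightest 25% was not counted without number 4.

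Number 4 was set against the mean of the other 3 numbers with treatment in the model. The residual of this model is how the OICR-9429 minus untreated difference varied over numbers. Its p-values therefore reflect agreement within same-numbered pairs, not a spread between separate cultures of a number. Of the 36 genes, 20 were lower in number 4 (55.6%, against 25.5% of all probe sets and 46.2% of the brightest 25%), and 10 were higher (27.8%, against 26.3% and 22.2%). CCNB2, AURKA, BUB1, BUB3, TPX2 and PRC1 did not pass. The sign of the difference was the same in the OICR-9429 arrays and in the untreated arrays for 36 of 36 genes. For numbers 1, 2 and 3 that count was 24, 33 and 30. The share over all probe sets was not counted, and the number 4 arrays deviated together over all probe sets (correlation 0.865). Number 4 was the lowest number in both groups for 22 genes (61.1%, against 26.3% of all probe sets). It was the highest in both for 10 genes (27.8%, against 30.3%). The number 4 difference correlated with mean level at -0.23 across all probe sets, which share the 8 arrays. With cyclic loess between the arrays, which flattens such a trend, 15 genes were lower (24.6% of all probe sets) and 12 higher (23.2%). The median of the 36 genes was then -0.15 in place of -0.38, and the 5 calls lost were CCNA2, CDC25B, BUB1B, MAD2L1 and NUSAP1. Shares of the brightest 25% were not counted for cyclic loess or for the lowest and highest number.

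**Figure D3:**
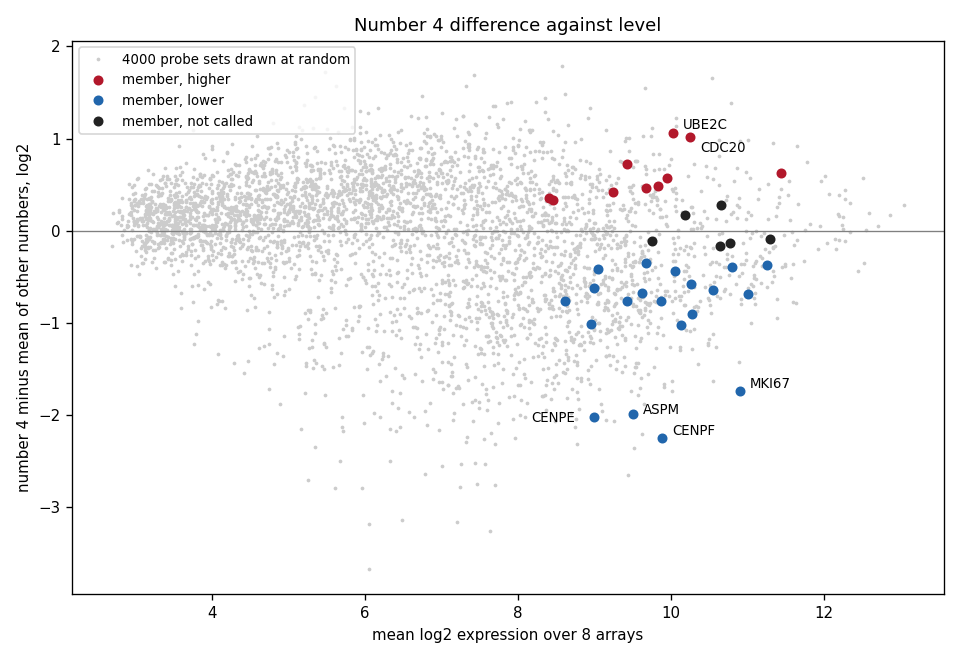
Difference of number 4 from the mean of the other 3 numbers (vertical axis, log2) against mean log2 expression over 8 arrays (horizontal axis), for the 36 genes (large points, coloured by limma call) and 4000 probe sets drawn at random (grey). CENPF, CENPE, ASPM and MKI67 lie near -2, UBE2C and CDC20 near 1, and the grey points at the same levels spread to both sides of 0.

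Number 2 was the other number with many calls. Against the mean of the other 3 numbers, 15 genes were higher in number 2 (41.7%, against 15.4% of probe sets and 26.1% of the brightest 25%) and 3 were lower (8.33%, against 11.6% and 21.5%): CDC20, UBE2C and AURKB. The contrasts of numbers 2 and 4 share arrays, so their values are not independent of each other. Without number 4, 11 genes were still higher in number 2 (30.6%, against 7.2% of all probe sets) and CDC20 alone was lower (2.78%, against 7.86%). Shares of the brightest 25% were not counted without number 4. Number 1 gave 1 higher gene (CDC20, 2.78%, against 10.6%) and 1 lower gene (KIF2C, 2.78%, against 6.14%). Number 3 gave 0 higher (1.18% of probe sets) and 0 lower (0.2%).

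**Figure D4:**
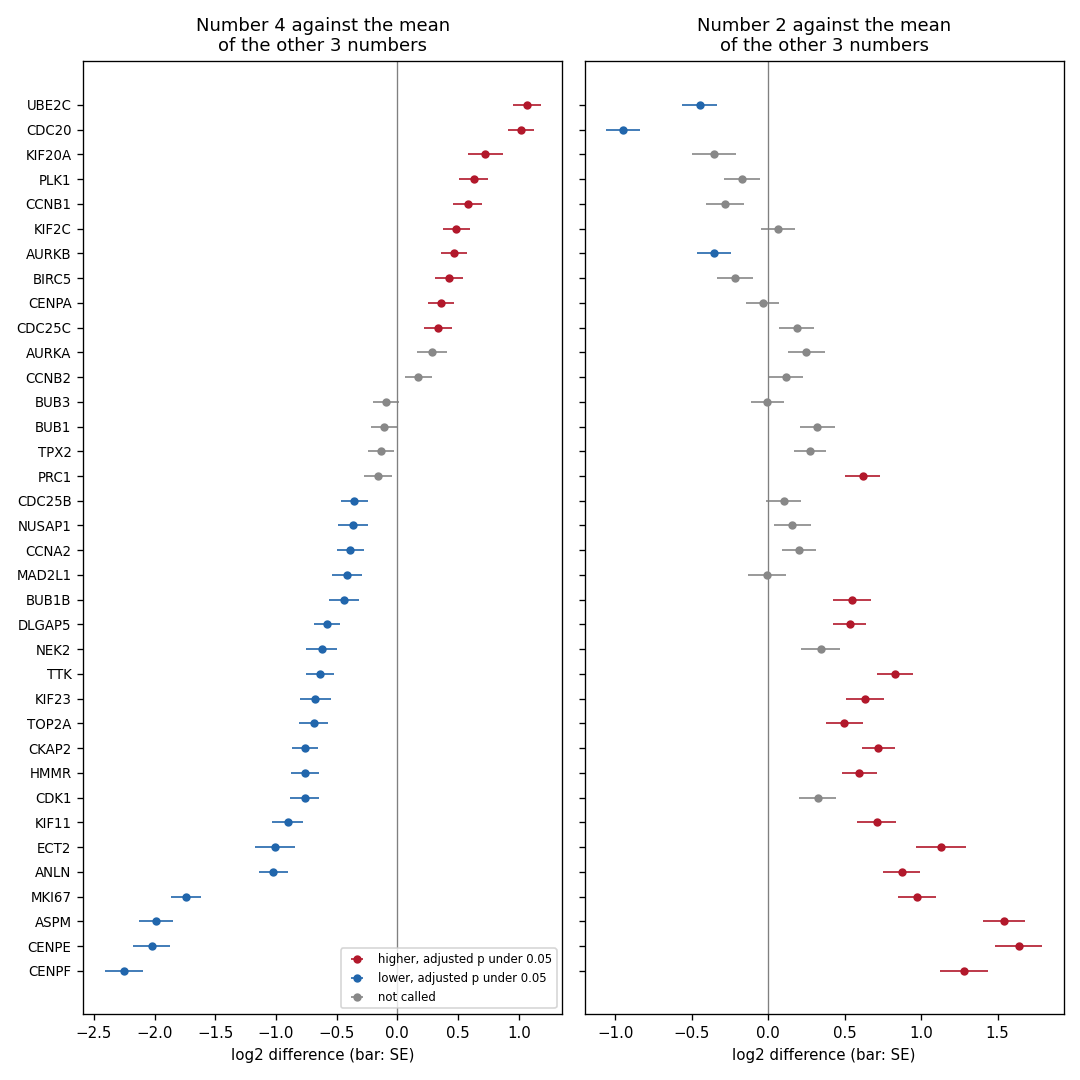
Difference of number 4 (left) and of number 2 (right) from the mean of the other 3 numbers, log2, for the 36 genes in the order of the number 4 difference, with bars of 1 SE from limma and colours for calls at an adjusted p under 0.05. UBE2C and CDC20 are at the top of the left panel and CENPF, CENPE, ASPM and MKI67 at its foot, and the same 4 genes reach about 1 to 1.6 in the right panel; the 2 panels share arrays.

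Promoters are shown for genes that were lower and genes that were higher in number 4, since many G2/M promoters are known to share 2 elements. RefSeq start sites on GRCh38.p14 gave a window from 250 bases before the start to 50 after it for 30 of the 36 genes; AURKA, BUB3, TTK, UBE2C, TPX2 and BIRC5 had no entry. The cell cycle genes homology region (CHR), bound by the DREAM and MuvB complexes, was searched as TTTGAA or TTTAAA, and the NF-Y site as CCAAT, each on both strands. A pair of lower genes, CENPF at chr1:214602945-214603244 (plus strand) and CENPE at chr4:103198294-103198593 (minus strand), is set beside 3 higher genes, CDC20 at chr1:43358731-43359030 (plus strand), KIF20A at chr5:138178862-138179161 (plus strand) and CCNB1 at chr5:69166900-69167199 (plus strand). Each sequence runs 5′ to 3′ along the strand of the gene, and capitals mark matches to either motif on either strand (TTTGAA reads TTCAAA and CCAAT reads ATTGG on the opposite strand).
CENPF: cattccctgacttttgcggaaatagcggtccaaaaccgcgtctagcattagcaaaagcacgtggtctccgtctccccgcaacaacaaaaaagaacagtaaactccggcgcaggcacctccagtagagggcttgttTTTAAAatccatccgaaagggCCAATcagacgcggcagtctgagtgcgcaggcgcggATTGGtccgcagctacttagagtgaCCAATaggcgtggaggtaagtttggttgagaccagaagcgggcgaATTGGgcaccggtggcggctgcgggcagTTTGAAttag
CENPE: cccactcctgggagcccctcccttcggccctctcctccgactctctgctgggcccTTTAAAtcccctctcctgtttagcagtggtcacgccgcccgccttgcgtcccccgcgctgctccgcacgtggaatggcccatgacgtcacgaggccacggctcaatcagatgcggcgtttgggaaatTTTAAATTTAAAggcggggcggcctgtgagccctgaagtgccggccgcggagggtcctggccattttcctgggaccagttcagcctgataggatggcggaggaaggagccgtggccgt
CDC20: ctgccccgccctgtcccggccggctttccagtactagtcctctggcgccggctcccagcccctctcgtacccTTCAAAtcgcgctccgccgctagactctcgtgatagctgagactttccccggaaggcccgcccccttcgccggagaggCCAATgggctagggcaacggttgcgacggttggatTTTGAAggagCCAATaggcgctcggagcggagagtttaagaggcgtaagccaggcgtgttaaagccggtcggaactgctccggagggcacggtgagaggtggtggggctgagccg
KIF20A: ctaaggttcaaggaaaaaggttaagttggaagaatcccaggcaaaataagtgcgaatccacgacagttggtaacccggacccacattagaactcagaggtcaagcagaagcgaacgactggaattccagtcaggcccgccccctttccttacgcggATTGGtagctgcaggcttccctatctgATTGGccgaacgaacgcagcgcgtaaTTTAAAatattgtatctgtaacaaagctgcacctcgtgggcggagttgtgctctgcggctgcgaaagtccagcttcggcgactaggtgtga
CCNB1: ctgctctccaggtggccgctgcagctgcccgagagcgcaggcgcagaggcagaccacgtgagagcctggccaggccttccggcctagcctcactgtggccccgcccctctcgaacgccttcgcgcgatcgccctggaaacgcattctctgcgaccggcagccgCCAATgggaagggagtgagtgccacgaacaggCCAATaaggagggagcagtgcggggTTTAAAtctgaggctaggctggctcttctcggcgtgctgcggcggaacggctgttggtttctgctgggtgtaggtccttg

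Matches to the CHR letters were found in 23 of the 30 windows (76.7%), against 24% of 35116 windows of the same length, and matches to CCAAT in 23 (76.7%), against 34.6%. Both motifs were present in 19 windows (63.3%, against 9.27%). By the call in number 4, CHR letters were in the windows of 6 of 8 higher and 15 of 19 lower genes, and CCAAT in those of 6 of 8 higher and 14 of 19 lower genes. In CCNB1 the TTTAAA match lay 30 bases before the start, with CCAAT at 55 and 87 bases before it. CDC20 had CCAAT at 55 and 100 bases, TTTGAA at 65 bases and its opposite-strand form TTCAAA at 178 bases before the start. CENPE had 3 TTTAAA matches, at 62, 68 and 195 bases before the start, and no CCAAT match in this window. These matches are descriptions of letters, not of binding.

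Among the cyclins, CDK1 and its phosphatases, 2 genes were higher, 3 lower and 1 not called in number 4. Of all probe sets, 26.3% were higher and 25.5% lower there, and of the brightest 25%, 22.2% and 46.2%. Each role holds few genes, so its counts, here and below, describe those genes only. CCNB1, cyclin B1, the mitotic cyclin, measured 9.86, 9.87, 9.91 and 10.36 in the OICR-9429 arrays of numbers 1 to 4, against 9.92, 9.62, 9.69 and 10.42 in the untreated arrays. CDK1, the kinase it activates, measured 9.87, 10.20, 10.23 and 9.44 with OICR-9429, against 9.97, 10.03, 10.08 and 9.16 untreated. Both number 4 arrays were the highest of their group for CCNB1 and the lowest for CDK1, while the 2 groups overlapped for both genes. In number 4 CCNB1 was higher by 0.58 ± 0.12 (SE; limma, adjusted p = 0.00484) and CDK1 lower, at -0.76 ± 0.12 (adjusted p = 0.00116).

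CCNA2, cyclin A2, measured 10.92, 10.96, 10.85 and 10.60 with OICR-9429, against 10.95, 10.93, 10.75 and 10.41 untreated, lowest in number 4 of each group. CDC25C, a phosphatase that removes the inhibitory phosphates of CDK1, measured 8.30, 8.71, 8.25 and 8.81 with OICR-9429, against 8.27, 8.50, 8.26 and 8.62 untreated, highest in number 4 of each group and next highest in number 2. The number 4 differences were -0.39 ± 0.11 for CCNA2 and 0.33 ± 0.11 for CDC25C. CDC25B, a related phosphatase active at mitotic entry, differed by -0.35, and CCNB2, cyclin B2, by 0.17 without passing the test. The OICR-9429 minus untreated differences of these 6 genes lay between -0.06 (CDC25B) and 0.13 (CDK1).

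Of the mitotic kinases, PLK1, which acts at centrosomes, kinetochores and the midzone, measured 11.32, 11.39, 11.10 and 11.93 with OICR-9429, against 11.49, 11.25, 11.20 and 11.91 untreated. AURKA, the centrosomal Aurora kinase, measured 10.48, 10.98, 10.36 and 10.93 with OICR-9429, against 10.64, 10.71, 10.35 and 10.81 untreated. Number 4 was highest for PLK1 in both groups, and for AURKA numbers 2 and 4 lay above numbers 1 and 3 in both groups. The number 4 difference was 0.63 ± 0.12 for PLK1 (limma, adjusted p = 0.00261) and 0.28 ± 0.12 for AURKA (adjusted p = 0.0882). AURKB, the kinase of the chromosomal passenger complex, measured 9.72, 9.39, 9.45 and 10.01 with OICR-9429, against 9.73, 9.42, 9.62 and 10.03 untreated. Each OICR-9429 value of AURKB was below its partner by between 0.01 and 0.17, and the number 4 difference was 0.47 ± 0.11.

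NEK2, a kinase that separates the centrosomes, had the widest OICR-9429 minus untreated difference of the 36 genes. It measured 9.09, 9.40, 9.29 and 8.78 with OICR-9429, against 9.08, 9.12, 8.97 and 8.29 untreated. The OICR-9429 value was higher in each number, by 0.01, 0.28, 0.32 and 0.49, and the groups overlapped. Number 4 was lowest in both. The difference was 0.28 ± 0.23 (SE) without the block and 0.28 ± 0.11 with it, with a 95% interval of 0.02 to 0.53 and an adjusted p in limma of 0.841 with the block. NEK2 was also lower in number 4, at -0.62 ± 0.13.

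Of the 5 spindle checkpoint genes, 3 were lower in number 4 (25.5% of all probe sets, 46.2% of the brightest 25%) and 2 did not pass. TTK, the kinase MPS1 at the head of the checkpoint, differed by -0.64 ± 0.12, BUB1B (BUBR1), a subunit of the inhibitory complex, by -0.44 ± 0.12, and MAD2L1 (MAD2), its partner, by -0.42 ± 0.13. MAD2L1 measured 9.30, 8.96, 9.23 and 8.89 with OICR-9429, against 9.19, 9.13, 9.12 and 8.59 untreated, with number 4 lowest in both groups. BUB3, which carries BUB1 and BUBR1 to kinetochores, had the narrowest range of the 36 genes, between 11.23 and 11.34 with OICR-9429 and between 11.24 and 11.36 untreated. In number 2, TTK was higher by 0.83 ± 0.12 and BUB1B by 0.55 ± 0.12, while MAD2L1 stood at -0.01 ± 0.13.

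CDC20 and UBE2C, which act at the anaphase-promoting complex as its activator and its ubiquitin-conjugating enzyme, ran the other way. CDC20 measured 10.47, 9.56, 9.89 and 10.99 with OICR-9429, against 10.64, 9.53, 9.92 and 11.05 untreated. UBE2C measured 9.99, 9.62, 9.61 and 10.89 with OICR-9429, against 9.89, 9.76, 9.69 and 10.76 untreated. For both genes number 4 was highest in each group, and for CDC20 number 2 was lowest in each. In number 4 CDC20 was higher by 1.02 ± 0.11 (2.03-fold; limma, adjusted p = 0.0001982) and UBE2C by 1.07 ± 0.12 (2.09-fold; adjusted p = 0.0002037). In number 2 they were lower, at -0.95 ± 0.11 for CDC20 and -0.45 ± 0.12 for UBE2C.

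The centromere and kinetochore genes split within the group. CENPF, a large kinetochore and nuclear matrix protein, measured 10.15, 10.96, 10.29 and 8.47 with OICR-9429, against 10.41, 10.74, 10.16 and 7.93 untreated. CENPE, the kinetochore kinesin that brings chromosomes to the spindle equator, measured 9.07, 10.34, 9.16 and 7.35 with OICR-9429, against 9.43, 10.12, 8.93 and 7.62 untreated. In each group number 4 was lowest and number 2 highest for both genes. In number 4 CENPF was lower, at -2.25 ± 0.16 (4.76-fold; limma, adjusted p = 4.062e-05), and so was CENPE, at -2.02 ± 0.15 (4.07-fold; adjusted p = 4.852e-05). CENPA, the histone H3 variant of centromeric nucleosomes, measured 8.36, 8.39, 8.31 and 8.73 with OICR-9429, against 8.27, 8.38, 8.23 and 8.63 untreated. Its number 4 values were the highest of each group, and its number 4 difference was 0.36 ± 0.11.

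Of the mitotic kinesins, KIF11 (Eg5), which pushes the spindle poles apart, was lower in number 4, at -0.91 ± 0.13, and KIF23, a subunit of centralspindlin, at -0.68 ± 0.13. KIF20A, a kinesin of the central spindle, was higher by 0.72 ± 0.14 and KIF2C, the microtubule depolymerase MCAK, by 0.49 ± 0.11. In number 2, KIF11 was higher by 0.71 ± 0.13 and KIF23 by 0.63 ± 0.13, and KIF20A and KIF2C did not pass.

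Of the 7 spindle assembly and microtubule genes, 0 were higher in number 4 (26.3% of all probe sets, 22.2% of the brightest 25%). In the same number 5 were lower (25.5% and 46.2%). ASPM, a spindle pole protein, measured 9.48, 10.80, 9.77 and 7.96 with OICR-9429, against 9.77, 10.51, 9.65 and 8.06 untreated. CKAP2, a microtubule stabiliser, measured 9.25, 9.99, 9.65 and 8.85 with OICR-9429, against 9.29, 9.95, 9.59 and 8.87 untreated. Number 2 was highest and number 4 lowest for both genes in both groups. ASPM was lower in number 4, at -1.99 ± 0.14 (3.96-fold; limma, adjusted p = 4.062e-05), and CKAP2 at -0.76 ± 0.11. HMMR (-0.76), DLGAP5, a microtubule-bundling protein (-0.58), and NUSAP1, a spindle protein that binds chromatin and microtubules (-0.37), were also lower. TPX2, the activator of AURKA, stood at -0.13 and PRC1, which bundles midzone microtubules, at -0.16, and neither passed. In number 2, PRC1 was higher by 0.62 ± 0.11, beside HMMR (0.60) and DLGAP5 (0.53).

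Among the chromosome genes, MKI67, the Ki-67 proliferation antigen, measured 11.19, 11.75, 11.18 and 9.50 with OICR-9429, against 11.26, 11.52, 11.14 and 9.70 untreated. TOP2A, the topoisomerase that untangles sister chromatids, measured 10.89, 11.44, 11.16 and 10.58 with OICR-9429, against 11.07, 11.32, 11.20 and 10.40 untreated. Number 4 was lowest and number 2 highest in both groups. In number 4 MKI67 was lower, at -1.74 ± 0.12 (3.34-fold; limma, adjusted p = 4.379e-05), and TOP2A at -0.69 ± 0.12, while BIRC5 (survivin), a subunit of the passenger complex, was higher by 0.43 ± 0.12. The mean OICR-9429 minus untreated difference of MKI67 was 0 ± 0.11 (SE, with the block).

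Both cytokinesis genes were lower in number 4 (25.5% of all probe sets, 46.2% of the brightest 25%) and higher in number 2 (15.4% and 26.1%). ANLN (anillin), the scaffold of the cleavage furrow, measured 10.25, 10.78, 10.14 and 9.52 with OICR-9429, against 10.21, 10.80, 10.17 and 9.22 untreated. ECT2, the exchange factor that activates RhoA there, ran between 8.51 and 9.77 with OICR-9429 and between 7.88 and 9.83 untreated. The number 4 differences were -1.02 ± 0.12 for ANLN and -1.01 ± 0.16 for ECT2, and the number 2 differences 0.87 ± 0.12 for ANLN and 1.13 ± 0.16 for ECT2.

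**Figure D5:**
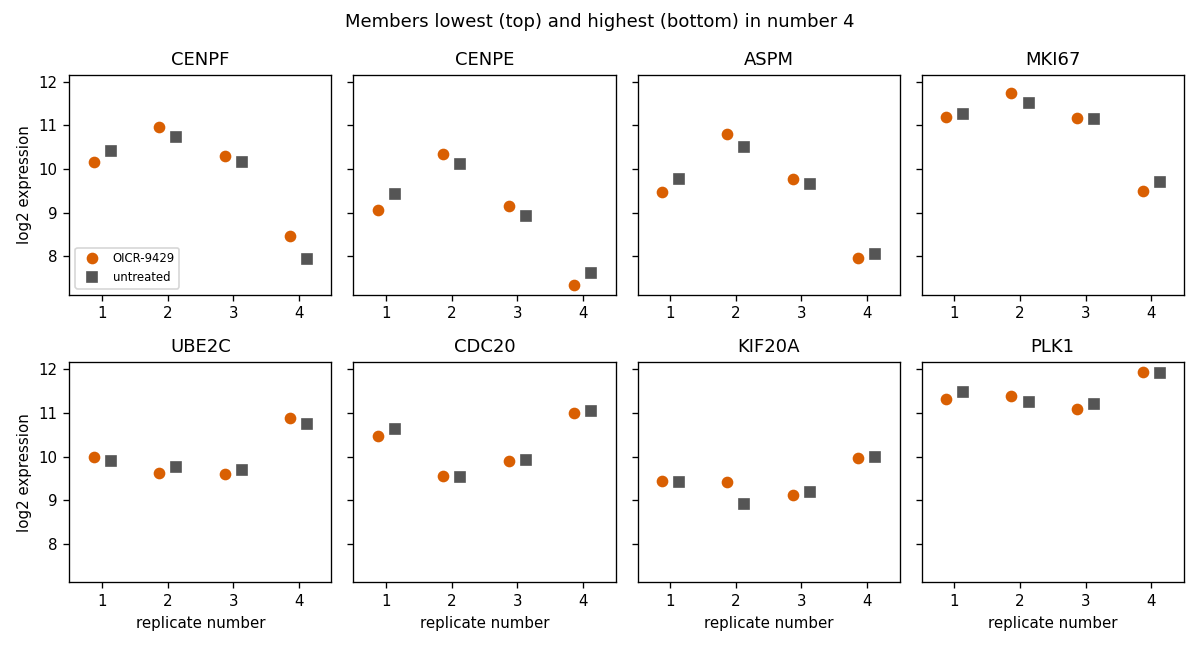
Log2 expression (vertical axis) of 4 genes lowest in number 4 (top row) and 4 genes highest in it (bottom row) by replicate number (horizontal axis), with OICR-9429 as circles and untreated as squares, 1 array each. The circle and square of a number lie close together. Number 4 lies about 2 below the mean of the other numbers for CENPF, CENPE and ASPM and about 1 above that mean for UBE2C and CDC20.

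Other genes of the pathway were taken from lists of 131 symbols, of which 123 were measured. With OICR-9429, 0 of the 123 passed (0% of all probe sets), 83 were above 0 (67.5%, against 51.1% of all probe sets and 62.3% of the brightest 25%) and the median difference was 0.05. HASPIN, which phosphorylates histone H3 at centromeres, was the 1 gene of the 123 whose groups did not overlap, near the background of 0.737% of all probe sets. It stood at 7.24 ± 0.15 with OICR-9429 and 6.98 ± 0.13 untreated (SD, n = 4 each), with a limma adjusted p of 1. In number 4, 69 of the 123 were lower (56.1%, against 25.5% of all probe sets and 46.2% of the brightest 25%) and 21 higher (17.1%, against 26.3% and 22.2%). In number 2, 48 were higher (39%, against 15.4% and 26.1%) and 14 lower (11.4%, against 11.6% and 21.5%).

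By list, the genes that varied most over numbers in the limma test were lower in number 4. They were PLK4, the kinase of centriole duplication (-2.11 ± 0.18), NIPBL, the cohesin loader (-1.89 ± 0.20), SPDL1, which recruits dynein to kinetochores (-1.83 ± 0.12), and NFYB, a subunit of the CCAAT-binding factor NF-Y (-1.58 ± 0.13). SMC2 of condensin (-1.5 ± 0.13), CEP55 of the midbody (-1.44 ± 0.14), SGO2, the protector of centromeric cohesin (-1.40 ± 0.17), CDC16 of the anaphase-promoting complex (-1.26 ± 0.11) and KIF15, a spindle kinesin (-1.22 ± 0.11), followed. The genes with the smallest unadjusted p for OICR-9429 in each list, none of which passed, were ESPL1 (0.28), NCAPG2 (0.23), CDC26 (0.18), LIN52 (0.17), SKA1 (0.16), CKS2 (0.14), FAM83D (0.12) and RACGAP1 (0.08), beside HASPIN (0.26). The difference of ESPL1 (separase, the protease that cleaves cohesin) rested on number 4, at 1.09, against -0.11 to 0.11 in the other numbers. Untreated replicate 4 was low, at 8.02, while the other untreated arrays lay between 8.77 and 8.86. OICR-9429 replicate 4 was high, at 9.11, against 8.67 to 8.89 in the other OICR-9429 arrays.

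Genes of DNA replication, which peak earlier in the cell cycle, were examined for comparison, and 43 of 44 were measured. In number 4, 32 of the 43 were lower (74.4%, against 46.2% of the brightest 25%) and 1 was higher (2.33%, against 22.2%), whereas the 36 mitotic genes held 20 lower and 10 higher. In number 2, 6 were higher (14%, against 15.4% of all probe sets and 26.1% of the brightest 25%). In the same number 12 were lower (27.9%, against 11.6% and 21.5%), while the mitotic genes held 15 higher and 3 lower. In number 1, 18 were higher (41.9%, against 10.6% of all probe sets and 21% of the brightest 25%). None was lower there (6.14% and 6.14%), while the mitotic genes held 1 higher and 1 lower. Whether the lists themselves differ was not tested. CCNE2, cyclin E2, was lower in number 4, at -2.40 ± 0.11, and MCM2, a subunit of the replicative helicase, was lower in number 2, at -0.89 ± 0.13. Among the T lineage markers, 6 of 10 were higher in number 4 (26.3% of all probe sets, 22.2% of the brightest 25%). Lower in number 4 were 2 of 10 (25.5% and 46.2%), and the median difference of the 10 was 0.56.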

How the data were processed

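RNA of 8 CCRF-CEM samples was measured on Affymetrix arrays, per the labels. The authors deposited log2 expression for each probe set. RMA and Transcriptome Analysis Console were used, per the submitters' processing notes, with versions and genome build not given in the sources used here. Scanner files were not used, so background and scan batch were not examined, and the number of arrays limits the precision. Of 21448 probe sets, 17709 had 1 gene symbol in the platform annotation and 3739 had none. The probe set with the highest mean was to represent a gene, and each of the 36 genes had only 1.

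Groups were compared with limma 3.58.1 (R 4.3.3; lmFit and eBayes, two-sided, Benjamini-Hochberg over all probe sets, threshold 0.05), without and with the replicate number as a block. A model of number and treatment gave the test over numbers and a contrast of every number with the mean of the remaining 3. Its residual is the variation of the OICR-9429 minus untreated difference over numbers. Variation was split into number, treatment and remainder by sums of squares. The numbers are in the labels. Arrays of the same number deviated from their group means together, with correlations over all probe sets of 0.696, 0.748, 0.566 and 0.865 for numbers 1 to 4, so the numbers were taken to pair the samples. All 36 genes are named; values per array are given for CCNB1, CDK1, PLK1, AURKA, MKI67 and TOP2A, the 6 genes with the smallest p for treatment and the 8 with the smallest p over numbers, and also for AURKB, chosen after its values were seen. From each other list the gene with the smallest p in each test is named. The members and lists were chosen with earlier results of these data known. Alternatives were other normalizations, a level filter, other eBayes settings and left-out arrays. The fits were run on simulated data with planted changes. There, recovery of the largest changes was required of the fits with number in the model, not of the fit without the block. Recovery of smaller planted changes was not required, and every planted change was larger than the OICR-9429 differences of the 36 genes. Promoter windows and names came from RefSeq tables of GRCh38.p14.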

Additional observations from a re-analysis of the deposited data

Results flagged for a closer look

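In 5 of the 72 sets of 4 values (36 genes in 2 groups), the highest or lowest array stood apart from the other 3 by more than the 95% limit of Dixon's ratio for 4 values. Chance flags about 1 set in 20, or about 3.6 of 72, and 4 of the 5 are arrays of number 4. CCNB1 in OICR-9429 replicate 4 was high, at 10.36 against 9.86 to 9.91 in the other OICR-9429 arrays (ratio 0.9). NUSAP1 in OICR-9429 replicate 4 was low, at 11.07 against 11.29 to 11.33 (ratio 0.8462). TPX2 in OICR-9429 replicate 2 was high, at 11 against 10.69 to 10.72 (ratio 0.9032). CDK1 in untreated replicate 4 was low, at 9.16 against 9.97 to 10.08 (ratio 0.8804), and so was MAD2L1, at 8.59 against 9.12 to 9.19 (ratio 0.8833).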

How the results depend on the processing

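For OICR-9429 against untreated, the count of called genes and of called probe sets was 0 under all 17 alternatives, the replicate block among them (0 of 36 genes, median difference 0.046). The median over the 36 genes ran from -0.048 to 0.13 when single arrays were left out without the block, and from 0.018 to 0.082 when whole numbers were left out with it. Averaging probe sets of a gene was not run, since each gene had 1. Over numbers, the test called 9 to 24 genes and 2979 to 10394 probe sets when 1 number was left out, lowest without number 4. It called 27 genes under quantile normalization (10402 probe sets) and 28 under cyclic loess (9913). With bright probe sets only it called 31 (8848), and with trend and robust eBayes 34 (11720). The number 4 counts stayed within 1.5 times under all 7 alternatives. Of the 30 calls, 23 (15 lower, 8 higher) passed in every one, and the others were BUB1B, CCNA2, CDC25B, CDC25C, CENPA, MAD2L1 and NUSAP1. AURKA, not called in the main fit, passed as higher under quantile and cyclic loess normalization and with bright probe sets only. It also passed with trend and robust eBayes and without number 2. CCNB2 passed as higher under cyclic loess alone. No gene changed sign among calls.

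Small counts moved more. Number 1 held 0 higher and 2 lower genes under quantile and under cyclic loess normalization, 4 and 2 with bright probe sets only, 4 and 3 with trend and robust eBayes, and 1 to 8 higher and 1 to 3 lower with a number left out. Number 2 held 5 lower genes with bright probe sets only and 5 with trend and robust eBayes, and 1 to 4 with a number left out. Number 3 held 1 higher and 4 lower genes with bright probe sets only, 3 and 5 with trend and robust eBayes, and 0 to 6 higher and 0 to 4 lower with a number left out, the most without number 2. Among all probe sets called in number 4, 50.7% were higher, and 40.2% with bright probe sets only.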
